A study of Mus musculus with 8 samples.

Results

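Interferon-induced genes were followed in dorsal root ganglia, the clusters of sensory neuron cell bodies beside the spinal cord. They are a named list of 41 genes, chosen by gene symbol and not by their values, and all 41 were found among the 48315 gene symbols of the deposited tables. The tissue came from wild-type mice of the SW (Swiss Webster) stock, which is outbred. All animals had received saline, so no library comes from an untreated or a stimulated animal, and the labels give no age. The design sets 4 libraries labelled male against 4 labelled female, each numbered 1 to 4. Whether a library holds tissue of a single animal or of several is not stated, so a p-value here reflects only how much these libraries vary, and part of that may be technical. The libraries were made from TRIzol-extracted RNA, depleted of ribosomal RNA, with the QuantSeq kit, which reads transcripts near their 3′ ends. Values are given as CPM, reads per 1000000 counted reads. These are not divided by gene length, because a transcript gives about the same number of reads whatever its length, and each level below is on that scale.

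Interferons are secreted when cells sense foreign nucleic acid. Type I and type III interferons activate the kinases Jak1 and Tyk2 at their receptors, and a complex that includes Stat2 and Irf9 then binds the interferon-stimulated response element (ISRE) in front of target genes. Type II interferon acts through Jak1 and Jak2, and its target genes often carry the gamma-activated site (GAS). The target genes encode antiviral effectors, sensors and regulators, and many are transcribed at a low level in tissue that is not infected.

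The start regions of these genes carry the letters of the 2 elements more often than those of genes in general. RefSeq's table for GRCm38.p6 gave windows from 250 bases before to 50 bases after the annotated start for 31 of the 41 genes, 36 windows in all. The ISRE was searched as 2 copies of GAAA with any 2 bases in between, or 2 copies of TTTC in the same arrangement for the other strand. It was found in 18 of the 36 windows (50%), which belong to 17 genes, against 3.44% of the 32851 windows searched over all genes. The GAS was searched as TTCNNNGAA, which reads the same on both strands, and was found in 8 of the 36 windows (22.2%) against 8.30% of those 32851. A match describes letters only and is not a measured binding site. The window of Isg15 (chr4:156200769-156201068, minus strand) is shown because it holds 3 overlapping ISRE matches. The window of Ifit1 (chr19:34640639-34640938, plus strand) holds 2 separate ones. Rsad2 (chr12:26456403-26456702, minus strand) and Cmpk2 (chr12:26468965-26469264, plus strand) are shown as neighbours that point away from each other and differ in their levels across libraries. The first of the 2 Irf1 windows (chr11:53769764-53770063, plus strand) holds a GAS match and no ISRE match. All are printed 5′ to 3′ on the gene's own strand, with ISRE letters in capitals, except that for Irf1 the capitals mark the GAS.
Isg15: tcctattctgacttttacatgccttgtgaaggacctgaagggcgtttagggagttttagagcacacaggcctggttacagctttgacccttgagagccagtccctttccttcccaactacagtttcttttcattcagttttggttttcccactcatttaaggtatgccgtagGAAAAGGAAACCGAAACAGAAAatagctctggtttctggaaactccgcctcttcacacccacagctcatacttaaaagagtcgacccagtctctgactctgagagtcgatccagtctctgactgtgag
Ifit1: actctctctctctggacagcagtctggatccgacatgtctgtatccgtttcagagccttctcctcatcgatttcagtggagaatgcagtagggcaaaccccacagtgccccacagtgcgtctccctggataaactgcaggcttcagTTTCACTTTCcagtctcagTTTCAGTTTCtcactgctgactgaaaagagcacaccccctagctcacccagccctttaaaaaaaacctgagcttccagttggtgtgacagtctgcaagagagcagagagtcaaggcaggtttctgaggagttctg
Rsad2: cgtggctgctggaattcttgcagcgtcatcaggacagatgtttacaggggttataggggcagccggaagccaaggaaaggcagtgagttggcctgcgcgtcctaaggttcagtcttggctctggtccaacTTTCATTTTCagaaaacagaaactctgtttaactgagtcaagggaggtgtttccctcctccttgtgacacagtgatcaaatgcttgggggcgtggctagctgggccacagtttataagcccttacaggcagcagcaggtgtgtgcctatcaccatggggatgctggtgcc
Cmpk2: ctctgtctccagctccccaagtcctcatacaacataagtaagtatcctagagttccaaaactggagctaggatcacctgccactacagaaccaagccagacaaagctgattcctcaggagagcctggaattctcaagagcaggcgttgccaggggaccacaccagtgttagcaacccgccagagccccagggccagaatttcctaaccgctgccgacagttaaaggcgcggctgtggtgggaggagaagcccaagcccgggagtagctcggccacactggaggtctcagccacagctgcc
Irf1: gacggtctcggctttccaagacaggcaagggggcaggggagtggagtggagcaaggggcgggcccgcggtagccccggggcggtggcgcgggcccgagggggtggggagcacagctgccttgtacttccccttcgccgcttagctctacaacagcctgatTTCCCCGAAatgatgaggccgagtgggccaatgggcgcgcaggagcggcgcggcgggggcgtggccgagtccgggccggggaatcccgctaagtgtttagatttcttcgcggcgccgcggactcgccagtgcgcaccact
The Cmpk2 window held no match to either element. Neither did those of Xaf1, Lgals3bp, Oasl2, Samd9l, Herc6, Ifi44, Irf7, Irf9, Dtx3l and Trim25. No window was given for Ifi27, Mx1, Mx2, Parp9, Parp14, Oas2, Zbp1, Dhx58, Usp18 and Rtp4.

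The libraries held between 7497790 and 12155800 counted reads, so 3 reads correspond to between 0.247 and 0.400 CPM. Sex-specific transcripts went against the labels of male 1 and female 1. The X-silencing RNA of female cells, Xist, stood at 294, 1.63, 2.45 and 5.44 CPM in male 1 to 4 and at 0.270, 162, 349 and 319.9 CPM in female 1 to 4. Ddx3y, a Y-linked helicase, stood at 0.855, 73.3, 66.97 and 131 CPM in male 1 to 4 and at 102, 0.329, 0.378 and 0.400 CPM in female 1 to 4. Differences by label are therefore also given without the libraries labelled male 1 and female 1, which leaves 3 libraries a label. Male 2 held transcripts of the central nervous system at 289 CPM in sum over 6 marker genes, against 7.26 to 15.6 CPM elsewhere. Markers of the labelled tissue were present: all 9 sensory neuron markers were above 0 in every library and summed to between 9850 and 20683 CPM, and 5 Schwann cell markers summed to between 8692 and 19348 CPM. In bulk tissue, fewer cells of a type and less RNA per cell cannot be told apart.

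In these ganglia most of the interferon-induced genes were detected, at low to moderate levels, and none passed the test between the labels. Of the 41 genes, 36 were above 0 in all 8 libraries. A mean of at least 1 CPM, the requirement for testing, was reached by 33. Of those 33, 14 had a mean of at least 10 CPM, 8 lay between 5 and 10 CPM and 11 between 1 and 5 CPM. The other 8 (Usp18, Zbp1, Irf7, Mx2, Oas2, Mx1, Oas1a and Oas3) had between 0 and 18 reads in a library. Mean levels ran from 0.135 CPM for Oas3 to 127 CPM for Ifi27, a small hydrophobic mitochondrial and nuclear membrane protein. Irf1, Cmpk2, Isg15, Ifi35 and Rsad2 followed.

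**Figure D1:**
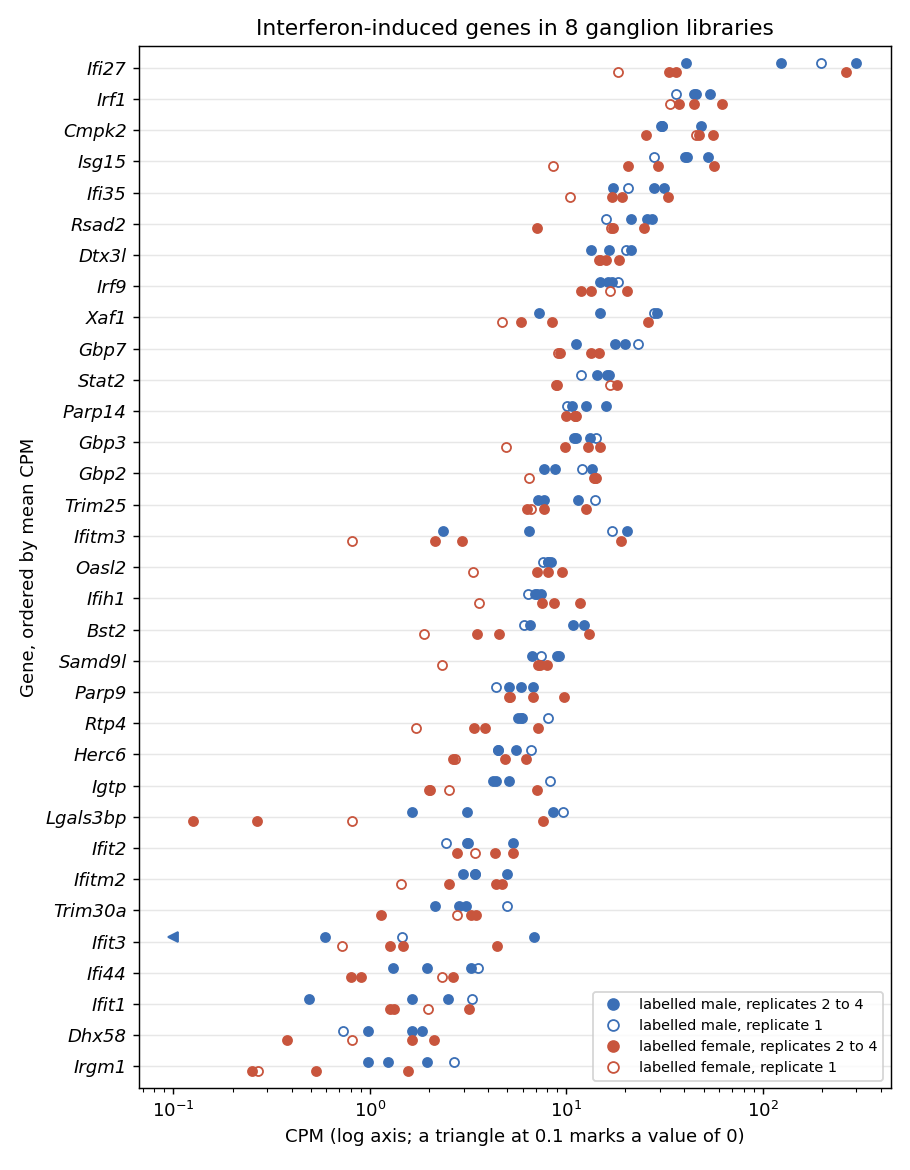
Levels of the 33 tested genes in each library, in CPM on a log axis, with 1 row per gene ordered by mean CPM and 1 point per library coloured by label. Ifi27 reaches the highest level, between 18.3 and 300.1 CPM. The 8 genes with a mean under 1 CPM are not drawn.

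By label, limma called 0 of the 33 tested genes at an adjusted p of 0.05, where it called 0 of all 14505 tested genes (0%). At an unadjusted p under 0.05 there was 1 of the 33, Irgm1, lower in the libraries labelled female, against 1595 of all genes (11%, of which 8.26% lower and 2.74% higher). Differences are on the log2(CPM + 1) scale, female minus male, which understates the change of low genes. The difference was below 0 for 26 of the 33 genes (78.8%) and for 67.5% of all genes, and the median was -0.26 over the 33 and -0.18 over all. That split depends on the scaling. After median ratio scaling 21 of the 33 (63.6%) were below 0, beside 51.5% of all genes, with medians of -0.09 and -0.02. After quantile normalization 16 of the 33 (48.5%) were below 0, beside 49.2% of all genes, and both medians were 0.01. When female 2 was left out limma called 4 of the 33 (Bst2, Igtp, Ifi27 and Lgals3bp) beside 1354 of all 14505 genes, and with array weights 9 beside 4363. Without both replicate 1 libraries it again called 0 of the 33, against 6 of 14505 genes (0.0414%), and 0 of the 33 had an unadjusted p under 0.05, against 352 of all genes (2.43%, of which 1.94% lower and 0.483% higher). The difference was then below 0 for 23 of the 33 (69.7%) and for 64.4% of all genes, and the median was -0.12 over both.

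**Figure D2:**
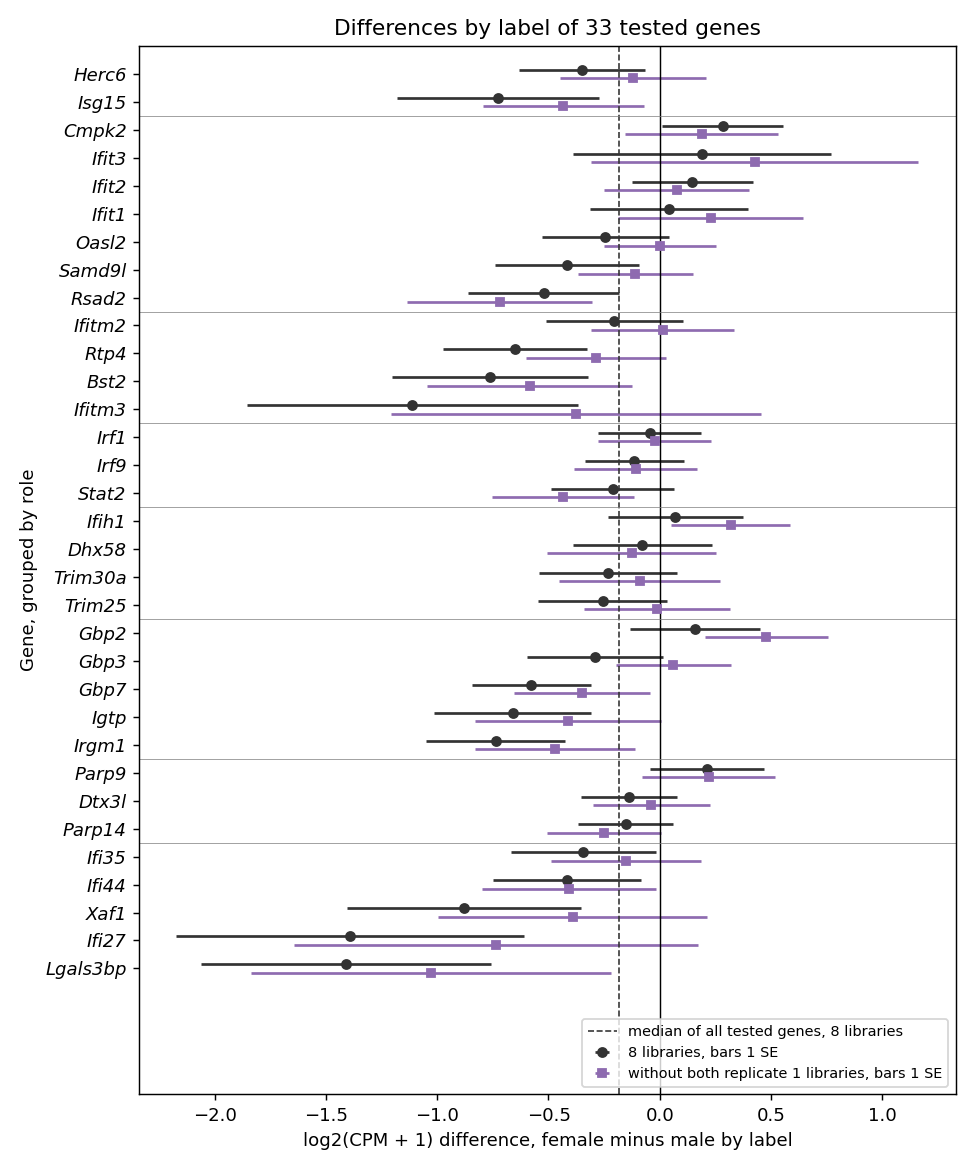
Differences of the 33 tested genes on the log2(CPM + 1) scale, female minus male by label, as circles for 8 libraries and squares without both replicate 1 libraries, with bars of 1 SE and a dashed line at the median of all tested genes (-0.18). Ifi27 (-1.39) and Lgals3bp (-1.41) lie farthest to the left with wide bars, and Cmpk2 (0.28) lies farthest to the right over 8 libraries.

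Per library, the spread within a label was wider than the gap between labels. The summed level of the 41 genes stood at 590.1, 746, 494 and 421 CPM in male 1 to 4 and at 265, 739.8, 340.4 and 358 CPM in female 1 to 4. Male 2 and female 2 stood highest and female 1 lowest, and the labels overlapped. The mean was 562.6 ± 140.3 CPM for male and 426 ± 213 CPM for female labels (SD, n = 4 each). Ifi27 alone made up between 6.90% and 40.2% of the sum. Without Ifi27 the sum stood at 392, 446, 370.4 and 379.9 CPM in male 1 to 4 and at 247, 473, 304 and 324 CPM in female 1 to 4, a narrower range with female 1 at the bottom and female 2 at the top.

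**Figure D3:**
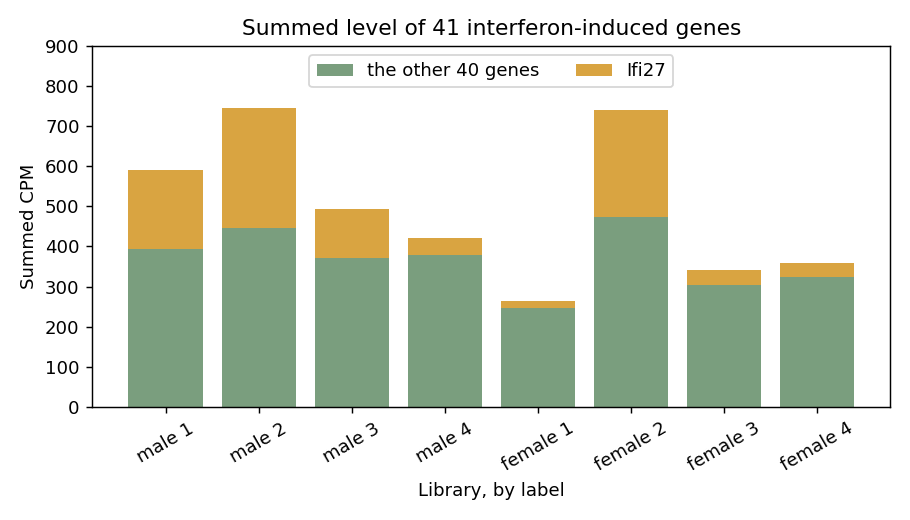
Summed CPM of the 41 genes in each library, split into Ifi27 and the other 40 genes. Male 2 (746 CPM) and female 2 (740 CPM) are highest, female 1 (265 CPM) is lowest, and the Ifi27 share differs more between libraries than the rest.

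Among the transcription factors, 3 of 4 were tested and none passed. Irf1, a factor induced most by type II interferon (ENSMUSG00000018899.16, chr11:53770014-53778374, plus strand), stood at 36.4, 44.6, 54.03 and 45.6 CPM in male 1 to 4 and at 33.6, 62.3, 37.7 and 44.5 CPM in female 1 to 4. Female 2 was highest and female 1 lowest, and the labels overlapped. The difference was -0.05 (SE 0.23, 95% interval -0.55 to 0.46, limma adjusted p = 0.931), it was -0.02 without both replicate 1 libraries, and its sign changed under both other scalings (0.15 and 0.09). Irf9, the DNA-binding subunit of the complex that recognises the ISRE, stood at 18.3, 17.1, 14.8 and 16.3 CPM in male 1 to 4 and at 16.6, 20.5, 11.8 and 13.3 CPM in female 1 to 4. It varied little, with female 2 highest and female 3 lowest, and differed by -0.11 (SE 0.22, limma adjusted p = 0.807) and by -0.11 without both replicate 1 libraries, with a sign that changed under both other scalings (0.07 and 0.09). Irf9 overlaps Rnf31 on the same strand in GENCODE M21 and had fractional reads in 4 libraries, so reads in the overlap cannot be told apart from those of Rnf31. Stat2, its partner in that complex, ranged from 8.82 CPM in female 3 to 18.2 CPM in female 2 and differed by -0.21 (SE 0.28, limma adjusted p = 0.706) and by -0.43 without both replicate 1 libraries. Irf7, the factor that amplifies type I interferon production, had 0 to 12 reads a library and was not tested.

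Isg15, a ubiquitin-like protein that is attached to other proteins (ENSMUSG00000035692.6, chr4:156199424-156200818, minus strand), stood at 28.1, 52.8, 41.2 and 40.4 CPM in male 1 to 4 and at 8.56, 56.8, 29.5 and 20.7 CPM in female 1 to 4. Female 2 and male 2 were highest and female 1 was far below the rest at 95 reads (95% exact binomial interval 6.93 to 10.5 CPM, counting error only), while the other libraries of both labels overlapped. The means were 40.6 ± 10.1 CPM for male and 28.9 ± 20.5 CPM for female labels (SD, n = 4 each), a difference of -0.73 (SE 0.45, 95% interval -1.73 to 0.28, limma adjusted p = 0.479) that became -0.43 without both replicate 1 libraries. Herc6, the main ligase that attaches Isg15 in the mouse, ranged from 2.65 CPM in female 3 to 6.60 CPM in male 1. Usp18, the protease that removes Isg15 and also restrains the type I receptor, had 1 to 18 reads a library.

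The RNA-binding and antiviral effectors were mixed: of 7 tested, 4 had log2 differences above 0 and 3 below, with a median of 0.04. For Ifit1 and Ifit3, counted above 0, the mean CPM was lower under the female label (1.95 against 1.98 and 1.97 against 2.23). Cmpk2, a mitochondrial nucleotide kinase (ENSMUSG00000020638.7, chr12:26469204-26479837, plus strand), stood at 30.8, 30.6, 30.5 and 48.6 CPM in male 1 to 4 and at 45.97, 25.5, 56.1 and 47.3 CPM in female 1 to 4. Male 4, female 1, female 3 and female 4 were the 4 highest, which makes Cmpk2 the only tested gene of the list with that order of libraries (3.03% of 33, against 10.2% of all genes). The difference was 0.28 (SE 0.27, 95% interval -0.32 to 0.88, limma adjusted p = 0.602) and 0.19 without both replicate 1 libraries. Rsad2, or viperin, an enzyme that makes a chain-terminating nucleotide, is its head-to-head neighbour, with 12752 bases between the annotated starts (ENSMUSG00000020641.15, chr12:26442746-26456452, minus strand). Rsad2 stood at 16.01, 25.9, 21.5 and 27.3 CPM in male 1 to 4 and at 16.9, 24.9, 7.06 and 17.3 CPM in female 1 to 4. Female 3 was lowest, where Cmpk2 was highest, and the labels overlapped. Its difference was -0.52 (SE 0.34, 95% interval -1.27 to 0.23, limma adjusted p = 0.486), -0.72 without both replicate 1 libraries and -0.19 when female 3 alone was left out. The ratio of Cmpk2 to Rsad2 ran from 1.02 in female 2 to 7.95 in female 3.

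The Ifit genes, whose products bind foreign 5′ RNA ends, were low. Ifit2 stood at 2.44, 5.33, 3.14 and 3.18 CPM in male 1 to 4 and at 3.43, 4.36, 2.77 and 5.33 CPM in female 1 to 4, with male 1 lowest and female 4 and male 2 highest. It differed by 0.15 (SE 0.27, 95% interval -0.45 to 0.75, limma adjusted p = 0.796) and by 0.08 without both replicate 1 libraries. Ifit1 lay between 0.490 and 3.30 CPM. Ifit3 stood at 6.85 CPM in male 2 and 4.44 CPM in female 2 and at or below 1.47 CPM in the other 6 libraries, with 0 reads in male 4, which allows up to 0.308 CPM by the limit of 3 reads (exact 95% upper bound 0.378 CPM). Its differences of 0.19 over 8 libraries and 0.43 without both replicate 1 libraries did not pass (limma adjusted p = 0.880 and 0.951). The 3 genes lie beside each other on chromosome 19 with near relatives, and reads of such copies may have been split or mixed by the authors' counting. Samd9l, a restriction factor for poxviruses, stood at 7.45, 9.14, 6.67 and 8.92 CPM in male 1 to 4 and at 2.34, 7.32, 7.18 and 8.0 CPM in female 1 to 4. Female 1 was lowest and the other 7 libraries lay together. Its difference of -0.42 (SE 0.33, 95% interval -1.13 to 0.30, limma adjusted p = 0.540) shrank to -0.11 without both replicate 1 libraries. Of the oligoadenylate synthetase family, whose active members switch on RNase L, Oasl2 was the only tested member on the named list. It stood at 3.34 CPM in female 1 and at 7.07 to 9.54 CPM elsewhere. Oas1c, a relative outside that list, was also tested and stood higher. Its mean was 14.3 CPM for male and 20.6 CPM for female labels. The Oas1c difference was 0.49 (SE 0.29, limma adjusted p = 0.467) and 0.16 without both replicate 1 libraries. Oas1a, Oas2 and Oas3 had between 0 and 12 reads a library.

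All 4 membrane effectors had lower means in the libraries labelled female, and none passed. For Ifitm2 the direction turned after quantile normalization (0.08) and without both replicate 1 libraries (0.01). Ifitm3, which blocks fusion of viruses in endosomes, stood at 17.1, 20.4, 6.47 and 2.36 CPM in male 1 to 4 and at 0.811, 18.9, 2.14 and 2.93 CPM in female 1 to 4. Male 1, male 2 and female 2 were high, male 3 was intermediate and the other 4 libraries were low, so the labels overlapped over a 25.2-fold range. The difference was -1.11 (SE 0.74, limma adjusted p = 0.489) and -0.38 without both replicate 1 libraries. Its relative Ifitm2 ranged only from 1.44 to 5.003 CPM, and the ratio of Ifitm3 to Ifitm2 ran from 0.486 to 5.0. Bst2, or tetherin, which holds budding virus at the cell surface, ranged from 1.89 CPM in female 1 to 13.1 CPM in female 2. It differed by -0.76 (SE 0.44, limma adjusted p = 0.465) and by -0.58 without both replicate 1 libraries. When female 2 was left out Bst2 was called, beside 1354 of all genes. Rtp4, a chaperone of G protein-coupled receptors, stood at 8.06, 5.66, 5.88 and 5.95 CPM in male 1 to 4 and at 1.71, 7.16, 3.40 and 3.87 CPM in female 1 to 4. Male 1 was highest, female 2 was the only library labelled female within the male range, and the difference was -0.65 (SE 0.32, 95% interval -1.36 to 0.06, limma adjusted p = 0.446) and -0.29 without both replicate 1 libraries.

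Among the sensors and their regulators, Ifih1 (MDA5), a cytoplasmic receptor of long double-stranded RNA, stood at 6.35, 6.96, 7.45 and 7.08 CPM in male 1 to 4 and at 3.61, 11.8, 7.56 and 8.67 CPM in female 1 to 4. Female 2 was highest and female 1 lowest. Over 8 libraries the difference was 0.07 (SE 0.30, 95% interval -0.60 to 0.74, limma adjusted p = 0.916). Without both replicate 1 libraries the labels did not overlap, with female above male, and the difference was 0.32 (SE 0.27, limma adjusted p = 0.946). The gap lies within counting error. Female 3 had 60 reads (exact 95% interval 5.77 to 9.73 CPM) and male 3 had 76 (5.87 to 9.33 CPM). Among the 33 genes 2 did not overlap in that way, Ifih1 and Gbp2, both with female above male, beside 2.65% of all tested genes in that direction, 4.94% in the other and 7.59% in either. With all 8 libraries 0 of the 33 genes had labels that did not overlap, beside 4.23% of all genes (1.23% with female above and 3% with male above). Trim25, the ubiquitin ligase of the RIG-I pathway, ranged from 6.30 to 14.1 CPM, and Trim30a, a ligase that restrains Toll-like receptor signalling in the mouse, from 1.13 to 5.01 CPM. Dhx58 (LGP2), a helper of MDA5, had 3 to 20 reads a library. Zbp1, a sensor of Z-form nucleic acid, had 3 to 13 reads and was not tested.

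The induced GTPases act on viruses and on the vacuoles of intracellular pathogens. Of 7, 5 were tested, and 4 of these had differences below 0, also under both other scalings. Gbp7, the highest (ENSMUSG00000040253.15, chr3:142530342-142550149, plus strand), stood at 23.2, 17.6, 11.3 and 19.9995 CPM in male 1 to 4 and at 9.10, 14.6, 9.33 and 13.3 CPM in female 1 to 4. Male 1 and male 4 were highest and female 1 and female 3 lowest, with overlap through male 3. The means were 18.03 ± 5.05 CPM for male and 11.6 ± 2.81 CPM for female labels (SD, n = 4 each), a difference of -0.58 (SE 0.27, 95% interval -1.17 to 0.01, limma adjusted p = 0.446) that was -0.35 without both replicate 1 libraries. Gbp2 stood at 12.1, 8.81, 7.75 and 13.5 CPM in male 1 to 4 and at 6.49, 14.1, 13.99 and 13.9 CPM in female 1 to 4. Female 1 was lowest and the other 3 libraries labelled female lay together above male 4. Its difference of 0.16 (SE 0.29, 95% interval -0.49 to 0.80, limma adjusted p = 0.797) became 0.48 (SE 0.28, limma adjusted p = 0.946) without both replicate 1 libraries. Gbp3 ranged from 4.96 CPM in female 1 to 14.8 CPM in female 2.

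Irgm1, a regulatory immunity-related GTPase (ENSMUSG00000046879.6, chr11:48861968-48871683, minus strand), stood at 2.69, 0.979, 1.96 and 1.23 CPM in male 1 to 4 and at 0.270, 1.56, 0.252 and 0.533 CPM in female 1 to 4. Female 1, female 3 and female 4 were below every library labelled male, and female 2 was within their range. These values rest on 2 to 22 reads a library. The difference was -0.74 (SE 0.31, 95% interval -1.42 to -0.05, limma adjusted p = 0.446), with an unadjusted p of 0.0380, and was -0.47 without both replicate 1 libraries. Igtp, a second GTPase of that group that overlaps Irgm2 on the same strand, stood at 8.31, 5.11, 4.22 and 4.41 CPM in male 1 to 4 and at 2.52, 7.07, 2.02 and 2.0 CPM in female 1 to 4. Female 2 and male 1 were highest, and the other libraries labelled female were below every library labelled male. The difference was -0.66 (SE 0.35, 95% interval -1.44 to 0.12, limma adjusted p = 0.457) and -0.41 without both replicate 1 libraries. It reached limma's threshold when female 2 was left out (-0.997, adjusted p = 0.0471), beside 1354 of all genes. Mx1 and Mx2, dynamin-like GTPases that act in the nucleus and in the cytoplasm of mouse cells, had between 0 and 9 reads a library. GENCODE M21 lists Mx2 as a polymorphic pseudogene.

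Of the ADP-ribosylation genes, Parp14 and Dtx3l had the narrowest log2 ranges among the 33 tested genes. Parp9 and Dtx3l, an enzyme and its ubiquitin ligase partner, overlap at their starts on opposite strands of chromosome 16, with 681 bases between the starts. The authors' strand setting is not given in the sources used here, although reads near the 3′ ends of these genes lie apart. Parp9 stood at 4.40, 5.11, 5.88 and 6.77 CPM in male 1 to 4 and at 5.14, 5.18, 9.70 and 6.80 CPM in female 1 to 4, with female 3 highest and male 1 lowest, and differed by 0.21 (SE 0.26, 95% interval -0.35 to 0.77, limma adjusted p = 0.681) and by 0.22 without both replicate 1 libraries. Dtx3l stood at 20.2, 21.3, 13.4 and 16.5 CPM in male 1 to 4 and at 14.6, 18.5, 14.9 and 15.9 CPM in female 1 to 4. The labels overlapped, and the difference of -0.14 (SE 0.21, limma adjusted p = 0.755) was -0.04 without both replicate 1 libraries and changed sign under both other scalings (0.05 and 0.06). Parp14, a further enzyme of this kind, stood at 10.1, 12.6, 10.7 and 15.9 CPM in male 1 to 4 and at 11.3, 9.95, 11.1 and 11.1 CPM in female 1 to 4, within a narrow band in all 8 libraries. Its difference was -0.15 (SE 0.21, limma adjusted p = 0.722) and -0.25 without both replicate 1 libraries, again with a sign that changed under both other scalings (0.03 and 0.09). Only 7.95% of all tested genes had a smaller log2 range over the libraries than Parp14, and 8.16% a smaller one than Dtx3l.

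At the other end, Ifi27 (ENSMUSG00000064215.13, chr12:103434211-103440239, plus strand) had a larger log2 range than 99.58% of tested genes. It stood at 198, 300.1, 124 and 40.8 CPM in male 1 to 4 and at 18.3, 267, 36.2 and 33.2 CPM in female 1 to 4, on 203 to 3242 reads. Male 2, female 2, male 1 and male 3 were high, the other 4 libraries were low, and the labels overlapped over a 16.4-fold range. The means were 166 ± 110.2 CPM for male and 88.6 ± 119 CPM for female labels (SD, n = 4 each), a difference of -1.39 (SE 0.78, 95% interval -3.11 to 0.33, limma adjusted p = 0.461). Without both replicate 1 libraries it was -0.73 (SE 0.91, limma adjusted p = 0.946). Leaving out female 2 alone kept only libraries low in Ifi27 under the female label. The difference then reached limma's threshold (-2.19, adjusted p = 0.0364), beside 1354 of all genes. Without both replicate 1 libraries and male 2 it was -0.0482. Ifi27l2a, a relative of Ifi27 named after its values were seen, stood at 22.4, 31.9, 19.2 and 5.13 CPM in male 1 to 4 and at 2.52, 31.8, 3.02 and 5.60 CPM in female 1 to 4, the same 4 libraries being high. The ratio of Ifi27 to Ifi27l2a stayed between 5.93 and 12.0.

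Xaf1, a pro-apoptotic factor that binds the inhibitor XIAP (ENSMUSG00000040483.15, chr11:72301629-72313733, plus strand), stood at 27.98, 29.04, 14.9 and 7.28 CPM in male 1 to 4 and at 4.69, 26.1, 8.44 and 5.87 CPM in female 1 to 4. The same 4 libraries were highest, with overlap between the labels. The difference was -0.88 (SE 0.53, 95% interval -2.04 to 0.28, limma adjusted p = 0.468), -0.39 without both replicate 1 libraries and 0.07 when male 2 was left out as well. Lgals3bp, a secreted glycoprotein that binds galectins, stood at 9.65, 8.59, 3.14 and 1.64 CPM in male 1 to 4 and at 0.811, 7.65, 0.126 and 0.267 CPM in female 1 to 4, on 1 to 93 reads. Male 1, male 2 and female 2 were high, and female 3 and female 4 had 1 and 2 reads. The difference of -1.41 (SE 0.65, 95% interval -2.85 to 0.03, limma adjusted p = 0.446) was -1.03 without both replicate 1 libraries. It also reached limma's threshold when female 2 was left out (-2.07, adjusted p = 0.0364), beside 1354 of all genes. Ifi35, a leucine zipper protein, stood at 20.6, 27.8, 31.6 and 17.3 CPM in male 1 to 4 and at 10.5, 33.1, 17.1 and 19.3 CPM in female 1 to 4, with female 2 and male 3 highest and female 1 lowest. It differed by -0.34 (SE 0.33, limma adjusted p = 0.601), by -0.15 without both replicate 1 libraries and by -0.0878 when female 1 alone was left out. Ifi44 lay between 0.800 and 3.54 CPM.

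**Figure D4:**
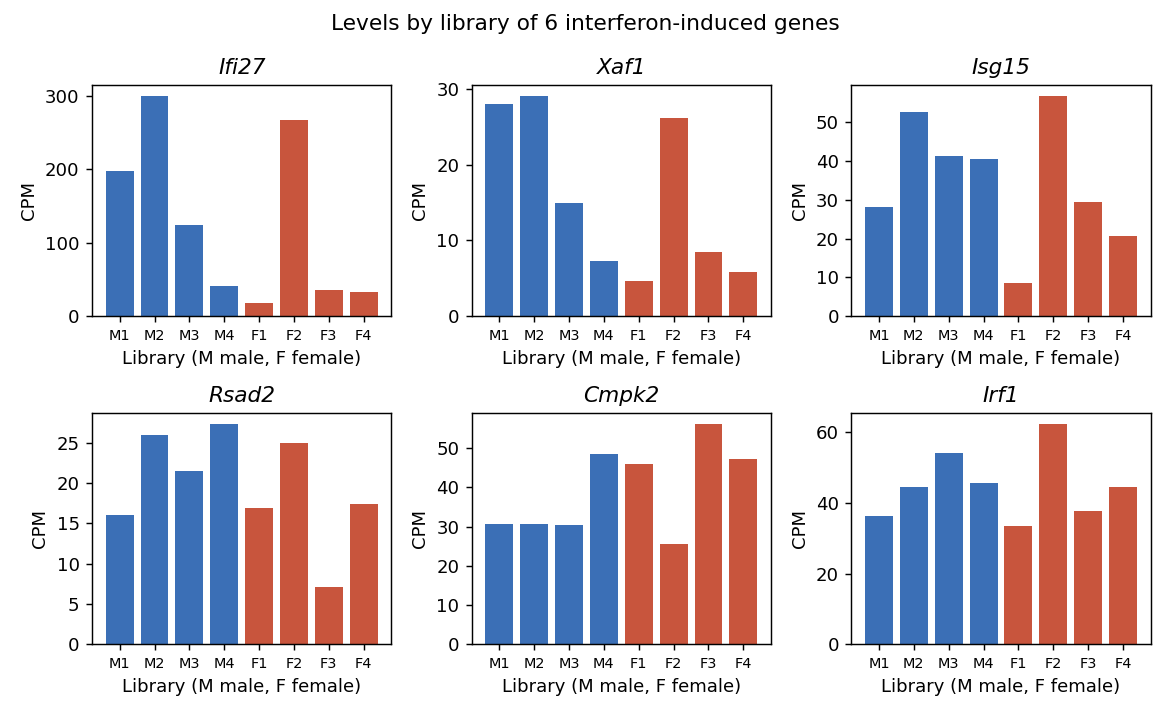
CPM of Ifi27, Xaf1, Isg15, Rsad2, Cmpk2 and Irf1 in each library, 1 bar per library coloured by label, each axis starting at 0. Ifi27 and Xaf1 are highest in male 1, male 2, male 3 and female 2, Cmpk2 is highest in the other 4 libraries, and Irf1 varies least.

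Which libraries were high was shared by several of the genes, and by genes at large. Of the 33 tested genes, 6 (Ifitm3, Trim25, Xaf1, Ifi27, Ifi35 and Lgals3bp) had male 1, male 2, male 3 and female 2 as their 4 highest libraries, 18.2% beside 23.1% of all tested genes, a share near the background. Female 1 was the lowest library for 15 of the 33 (45.5%, beside 29.3% of all genes) and female 3 for 9 (27.3%, beside 21.3%). Male 1 and female 2 were each the highest for 10 (30.3%, beside 13.8% and 16.4%). The median log2 range over the libraries was 1.41 for the 33 genes and 1.20 for all tested genes. Above a mean of 5 CPM it was 1.35 for 22 genes and 1.14 for all 10542 such genes.

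**Figure D5:**
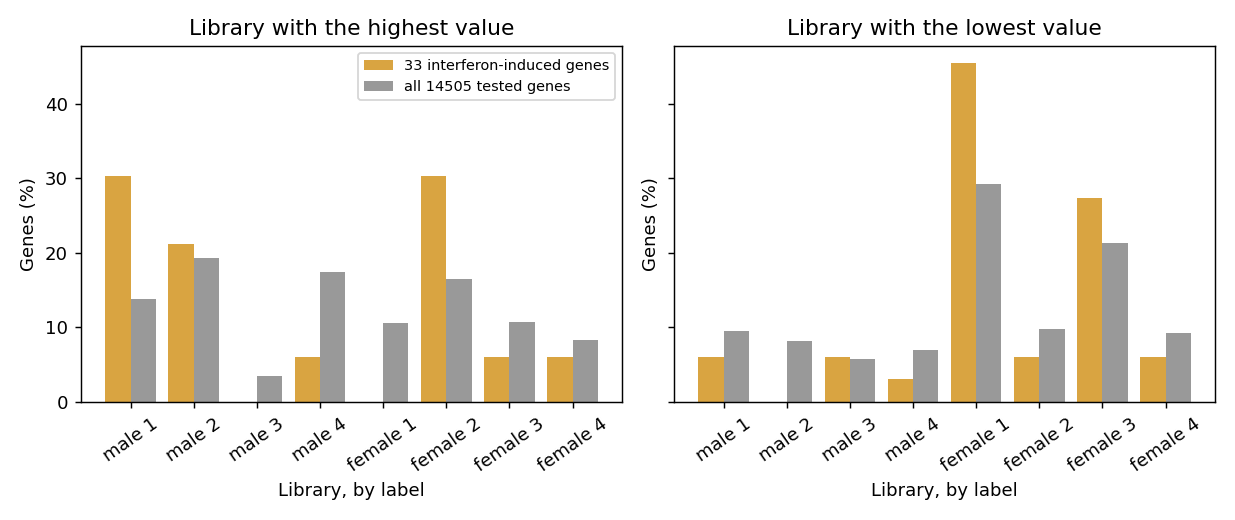
Percentage of the 33 tested genes, and of all 14505 tested genes, that had their highest value (left) and their lowest value (right) in each library. Female 1 is the lowest library for 45.5% of the 33 genes and 29.3% of all genes, and male 1 and female 2 are each the highest for 30.3% of the 33.

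Summed markers of satellite glia, Schwann cells, neutrophils and sensory neurons separated male 1, male 2, male 3 and female 2 from the other libraries. That grouping was chosen with earlier results of these data known, and many genes follow it. Of all tested genes, 23.1% had these as their 4 highest libraries and 10.2% had the others as their 4 highest. Those of plasmacytoid dendritic cells, which include Bst2, did so narrowly, at 8.80 to 16.1 CPM in these libraries against 2.70 to 8.20 CPM in the others. Those of endothelial cells did not, at 192 to 209 CPM in these libraries against 154 to 218 CPM in the others. Those of B cells, T cells and the central nervous system overlapped. Those of macrophages overlapped too, at 186 to 302 CPM against 277 to 417 CPM. The 4 satellite glia markers summed to 726, 751, 769 and 721 CPM in male 1, male 2, male 3 and female 2 and to between 399 and 540 CPM in the others. The 5 Schwann cell markers summed to between 16623 and 19348 CPM in those 4 libraries and to between 8692 and 13269 CPM in the others. The 7 neutrophil markers, led by S100a9 and S100a8, summed to between 217 and 452 CPM in those 4 and to between 118 and 141 CPM in the others. The sum of the 9 sensory neuron markers went the other way, at 9850 to 14976 CPM against 15753 to 20683 CPM. Between the labels, which group the libraries otherwise, single neuron markers did not all move alike. By label, 6 of the 9 had differences above 0 (Uchl1 1.22) and 3 below (Snap25 -0.30, Rbfox3 -0.34 and Tubb3 -0.06). Those signs do not describe the grouping above. The part of these cell type differences in the values of the interferon-induced genes was not tested.

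Markers of immune cells, which could also carry these transcripts, had the following levels. The 12 macrophage markers summed to 186 to 277 CPM under the male label and 302 to 417 CPM under the female label, mostly through C1qa, at 72.2 to 139.7 CPM and 143.6 to 264 CPM. Of the 10 tested, 6 had differences above 0 (C1qa 1.04) and 4 below (Csf1r -0.88, Adgre1 -0.66, C1qb -0.48 and Fcgr3 -0.46), and none passed limma's threshold. The ratio of C1qa to C1qb, which encode chains of the same complement protein, ran from 32.5 to 942, so an order of levels between genes describes the CPM of these 3′ libraries only. Of the 12, 11 were above 0 in every library. The 6 T cell markers, of which 1 was above 0 in every library, summed to at most 1.74 CPM, the 4 B cell markers to at most 5.22 CPM, and the 4 plasmacytoid dendritic cell markers, which include Bst2, to at most 16.1 CPM. The 8 endothelial markers summed to 192 to 218 CPM under the male label and 154 to 206 CPM under the female label.

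The interferon genes themselves were nearly silent: of 21 ligand genes, 19 were at 0 in all 8 libraries, and the summed level of all 21 was at most 0.294 CPM. The machinery that answers interferon was present. Of 56 ligand, receptor, signalling, sensing and inhibitory genes, 30 were tested, and limma called 0 of them, with 10 differences above 0 and 20 below (66.7%, beside 67.5% of all genes) and a median of -0.11. After median ratio scaling 18 were above 0 and 12 below (40%, beside 51.5% of all genes). At an unadjusted p under 0.05 there were 3, all lower in the libraries labelled female (Jak2, Irf3 and Socs1), beside 8.26% of all genes in that direction. Without both replicate 1 libraries 0 of the 30 had an unadjusted p under 0.05, beside 2.43% of all genes, and the median was -0.07. Ifngr1, the ligand-binding chain of the type II receptor, was the highest receptor gene and stood at 179, 149.7, 172 and 194 CPM in male 1 to 4 and at 138, 156, 247 and 219 CPM in female 1 to 4. Jak1, the kinase shared by the 3 receptor types, stood at 363, 289, 309 and 262 CPM in male 1 to 4 and at 334, 368, 409 and 352 CPM in female 1 to 4, within a 1.56-fold range. The highest sensor, Ddx58 (RIG-I), stood at 40.2, 43.9, 34.2 and 56.3 CPM in male 1 to 4 and at 32.99, 41.3, 45.4 and 42.4 CPM in female 1 to 4. The highest factor of that list was Stat3, with a mean of 235 CPM, and the highest inhibitory gene was Ptpn11, a phosphatase, with 67.7 CPM.

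A further 60 interferon-induced names outside the 41 gave 57 matches, of which 32 were tested. Limma called 0 of these, 2 had an unadjusted p under 0.05, and both were lower in the libraries labelled female, beside 8.26% of all genes in that direction. Differences were below 0 for 25 of the 32 (78.1%, beside 67.5% of all genes) and above 0 for 7, with a median of -0.31, beside -0.18 for all genes. After quantile normalization 17 were below 0 (53.1%, beside 49.2% of all genes) and 15 above, with a median of -0.05. Without both replicate 1 libraries 19 were below 0 and 13 above, with a median of -0.13, and 0 had an unadjusted p under 0.05. The highest gene was Tdrd7, a Tudor domain protein, which stood at 79.9, 62.5, 77.6 and 32.3 CPM in male 1 to 4 and at 26.3, 65.6, 50.03 and 51.3 CPM in female 1 to 4. Male 1, male 3, female 2 and male 2 were highest, and the labels overlapped.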

How the data were processed

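The authors deposited 1 table per sex with 4 columns each, named TPM. The numbers behave as CPM: each library summed to 1000000, and 98.3% to 98.6% of values above 0 and under 200 reads matched, to within 0.05 of a read, whole multiples of a step shared by all genes. The deposited values are called CPM here, and the step gives the depth. Per the submitters' processing notes, Cufflinks 2.2.1, Bowtie2 2.2.9, TopHat2 2.1.1 and FastQC 0.11.5 were used with builds mm10 and GRCm38.p4, with roles not stated. The annotation was not given in the sources used here, nor were strand and filters. Depth limits low genes, and the floor of 3 reads and the exact binomial intervals hold counting error alone.

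Rows sharing a symbol were summed (110 symbols of 48431 rows). Genes whose mean reached 1 CPM were tested as log2(CPM + 1) with limma 3.58.1 in R 4.3.3, two-sided and with a variance trend, adjusted by Benjamini-Hochberg over 14505 genes. The test was checked on simulated data in which genes varied independently, so the check does not cover patterns that many genes share across libraries. The genes, lists and tests were chosen with earlier results of these data known. Values per library are given for the 10 genes with the highest means, the 4 per direction with the smallest p, genes whose labels did not overlap and genes with a library apart; any other gene was named after its values were seen. Alternatives were 2 pseudocounts, 3 filters, 2 scalings, 2 variance models, the replicate block and leaving out libraries. All 28 library pairs differed. Positions are from GENCODE M21 (GRCm38), where 41 of 41 genes matched and 17 overlapped another gene, and start windows from RefSeq. Ribosome profiling was not analysed here.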

Additional observations from a re-analysis of the deposited data

Results flagged for a closer look

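Within the 66 groups of 4 libraries (33 genes by 2 labels), 6 had a library whose gap to its nearest neighbour, divided by the group's range, was above Dixon's 95% critical value, where chance gives about 1 in 20. That is 9.09% of these groups, beside 6.34% of the 29010 groups of all tested genes. Female 1 stood low for Gbp2 (6.49 CPM against 13.9 to 14.1 CPM, gap 0.974) and for Samd9l (2.34 CPM against 7.18 to 8.0 CPM, gap 0.904). Female 2 stood high for Igtp (7.07 CPM against 2.0 to 2.52 CPM, gap 0.838) and low for Parp14 (9.95 CPM against 11.1 to 11.3 CPM, gap 0.857). Male 4 stood high for Cmpk2 (48.6 CPM against 30.5 to 30.8 CPM, gap 0.979), and male 1 stood high for Rtp4 (8.06 CPM against 5.66 to 5.95 CPM, gap 0.861). The libraries labelled female 1 and male 1 are those whose sex-specific transcripts go against their labels.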

How the results depend on the processing

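The count of 0 of the 33 genes past the threshold held under every alternative but 2. Array weights called 9 genes (Cmpk2, Ifitm3, Bst2, Rtp4, Igtp, Irgm1, Xaf1, Ifi27 and Lgals3bp) beside 4363 of all genes; for those with alternatives of their own the differences were 0.54 for Cmpk2, -0.72 for Rtp4, -1.06 for Igtp, -0.90 for Irgm1, -1.56 for Xaf1, -2.27 for Ifi27 and -2.32 for Lgals3bp (limma adjusted p between 0.00862 and 0.0421). Leaving out female 2 called 4 (Bst2, Igtp, Ifi27 and Lgals3bp) beside 1354 of all genes, so that counts ran from 0 to 4 over single libraries left out, and from 0 to 0 without both replicate 1 libraries. The median difference ran from -0.40 to -0.17 over single libraries left out, and from -0.25 to 0.01 without both replicate 1 libraries, where it was 0.07 after quantile normalization and -0.01 after median ratio scaling. Leaving out male 2 as well gave -0.05.

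Of 376 values for 20 genes, 14 changed sign. After median ratio scaling the differences were 0.145 for Irf1, 0.0701 for Irf9, 0.0472 for Dtx3l and 0.0277 for Parp14, and after quantile normalization they were 0.0864, 0.0915, 0.059 and 0.0854. Leaving out both replicate 1 libraries and male 2 gave 0.126 for Dtx3l and 0.0722 for Xaf1. Over single libraries left out, Irf1 ran from -0.217 to 0.0734, Ifih1 from -0.133 to 0.357 and Xaf1 from -1.36 to -0.609. The causes of these changes were not tested. With the replicate number as a block 0 genes passed and the median was -0.26, and no call changed. Deviations of same-numbered libraries correlated at -0.31, 0.70, -0.15 and 0.44, which does not settle whether the numbers pair the libraries. A count model on recovered reads was not run, because some values were not whole reads. Depth limits the 8 untested genes and others with few reads, such as Irgm1, Dhx58, Ifit1, Ifit3 and Lgals3bp.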
